A study of Saccharomyces cerevisiae with 24 samples.

Results

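Large ribosomal subunit assembly factors are the proteins that build the 60S subunit of the ribosome without staying in it. A list of 58 yeast genes for such factors was taken by locus tag, for their known role, with earlier results of these data known, and 51 of them were among the 4442 gene pairs counted in these data. Of the 51, 49 had enough reads to test total expression and 42 had enough to test the ratio of their alleles. The genes not counted here were NOP7, RLP7, CIC1, RPF1, RRP15, MAK16 and NIP7, and they were not analysed.

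Assembly of the large subunit starts in the nucleolus on the transcript of the ribosomal DNA, where RNA helicases, RNA-modifying enzymes and scaffold proteins fold and cut the precursor RNA. GTPases and a remodelling machine then release early factors in the nucleus, and export and cytoplasmic factors carry the particle out and strip it of its last helpers. In budding yeast the genes of this programme are known to be transcribed together in growing cells, and many of their promoters hold a pair of short elements called PAC and RRPE.

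The data came from 2 kinds of Saccharomyces cerevisiae culture. The hybrid (WL201) was an a/alpha diploid made by crossing the laboratory strain BY4741 with RM11-1alpha, a haploid of a vineyard-derived strain. The co-culture held haploid BY4741 and haploid RM11-1a cells, both MATa, grown in 1 flask, so ploidy and mating type differ between the groups together with the mixing of the genomes. BY4741 carries auxotrophic deletions. In the hybrid a deleted BY allele is paired with an RM allele, such as that of MET17 with 149 reads. The BY4741 cells of the co-culture have no such copy, so this too differs between the groups. Each group had 4 technical replicate cultures at 30 °C, started at an OD600 of 0.1 and harvested at 1, and 12 libraries whose culture of origin the labels do not give. Per gene pair, reads over sites that differ between the strains were counted separately for the BY and the RM allele. Levels therefore depend on how many such sites a gene has, and genes are compared here only between groups, not with each other.

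Total reads per library lay between 165503 and 232428 in the hybrid and between 199838 and 227175 in the co-culture. Libraries of a group were summed into sets in which no pair differed by more than sampling noise. Some libraries of different sets also differed by no more than that. The sums gave 6 summed replicates per group, more than the 4 cultures, so they are not independent cultures. P-values therefore measure a spread that may be technical. The a-specific genes matched the labels, with 71 BY and 70 RM reads of STE2 in the hybrid beside 6579 and 11566 in co-culture, and the BY allele of MET17, deleted in BY4741, had 0 reads in both. Reads of BY were 50.31% of the hybrid and 45.19% of the co-culture reads. A lower level in such bulk RNA cannot tell fewer cells from less RNA per cell.

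The stretch upstream of the coding sequence was read from the RefSeq R64 assembly for the 6 genes below, because the members moved together and their promoters share short elements. R64 was matched by locus tag, because the build behind the counts is not given in the sources used here. EBP2 (YKL172W), CBF5 (YLR175W), DBP3 (YGL078C) and RPF2 (YKR081C) have the smallest p-values for total expression, with at most 1 gene per role. RRP14 (YKL082C), with the largest fold, and MAK11 (YKL021C), the 1 counted member with neither element, were chosen after their values were seen. Each sequence runs 5′ to 3′ on the strand of its gene from 300 to 51 bases before the start codon, and capitals mark the PAC motif GATGAG and the RRPE motif AAAATTT on either strand, where AAAATTTT holds a match on both. The positions are chrXI:125459-125708 on the plus strand for EBP2, chrXII:505834-506083 on the plus strand for CBF5, chrVII:361910-362159 on the minus strand for DBP3, chrXI:592591-592840 on the minus strand for RPF2, chrXI:282380-282629 on the minus strand for RRP14 and chrXI:398801-399050 on the minus strand for MAK11.
EBP2: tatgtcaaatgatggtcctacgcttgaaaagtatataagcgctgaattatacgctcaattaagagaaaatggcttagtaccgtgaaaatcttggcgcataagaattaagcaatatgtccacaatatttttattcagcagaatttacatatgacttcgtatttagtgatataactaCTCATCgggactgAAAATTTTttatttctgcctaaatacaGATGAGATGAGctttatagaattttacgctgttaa
CBF5: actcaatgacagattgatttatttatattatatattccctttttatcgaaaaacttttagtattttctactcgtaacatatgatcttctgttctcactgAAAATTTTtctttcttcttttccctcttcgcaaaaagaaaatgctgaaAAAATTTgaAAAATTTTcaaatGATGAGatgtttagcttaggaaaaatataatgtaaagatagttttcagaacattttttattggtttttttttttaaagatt
DBP3: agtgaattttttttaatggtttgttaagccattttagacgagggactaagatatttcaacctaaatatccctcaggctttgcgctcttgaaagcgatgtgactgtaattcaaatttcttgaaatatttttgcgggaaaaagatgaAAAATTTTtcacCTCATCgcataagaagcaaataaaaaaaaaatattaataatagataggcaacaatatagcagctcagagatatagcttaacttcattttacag
RPF2: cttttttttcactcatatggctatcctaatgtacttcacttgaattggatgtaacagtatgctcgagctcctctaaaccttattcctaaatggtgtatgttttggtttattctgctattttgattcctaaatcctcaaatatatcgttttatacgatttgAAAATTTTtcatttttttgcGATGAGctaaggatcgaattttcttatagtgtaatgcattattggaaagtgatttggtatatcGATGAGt
RRP14: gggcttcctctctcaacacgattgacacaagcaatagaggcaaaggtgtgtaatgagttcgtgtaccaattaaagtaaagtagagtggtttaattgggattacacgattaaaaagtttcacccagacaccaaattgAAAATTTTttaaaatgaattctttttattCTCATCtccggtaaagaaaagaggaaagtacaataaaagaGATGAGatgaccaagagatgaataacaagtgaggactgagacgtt
MAK11: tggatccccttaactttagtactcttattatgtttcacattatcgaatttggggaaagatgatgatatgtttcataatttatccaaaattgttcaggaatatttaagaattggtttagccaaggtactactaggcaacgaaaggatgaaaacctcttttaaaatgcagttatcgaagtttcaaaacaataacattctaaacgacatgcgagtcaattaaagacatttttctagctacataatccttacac

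Most counted assembly factor genes held both motifs in this window. PAC was found in 44 of 51 (86.3%) and RRPE in 48 (94.1%), and 42 (82.4%) had both. Among all 6007 protein-coding genes with a window of the same length, 17.8% held PAC, 22.2% held RRPE and 6.8% held both. The small subunit assembly factors were alike, with both motifs in 86.0% of 50. The match nearest the start codon lay at a median of 114.5 bases before it for PAC and 137 bases for RRPE, and in 37 of the 42 genes with both the RRPE match was the farther one. In DBP3 the single PAC match lay 143 bases and in CBF5 131 bases before the start codon. A match describes these letters only and does not show binding.

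The assembly factor genes stood higher in the hybrid almost as a block. Counted over all libraries, their share of all reads was 2.411% ± 0.054 for the hybrid (SD, n = 6, from 2.335% to 2.497%) and 1.333% ± 0.028 for the co-culture (SD, n = 6, from 1.307% to 1.374%). The ranges of the groups did not overlap.

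Gene by gene, each level is given in CPM (reads of both alleles per 1000000 reads, scaled by TMM), and each difference as the log2 of hybrid over co-culture with its standard error (SE). The test was the quasi-likelihood F test of edgeR with Benjamini-Hochberg adjustment over all genes and a threshold of 0.05. With no filter on low counts, 49 of the 51 genes rose in the hybrid and 0 fell, while 20.7% of all genes were called higher in that fit. The 2 that did not pass were BRX1 and RIX1. With genes kept only where a group averaged at least 10 reads in a library, 48 of 49 rose, against 29.5% of the 2793 genes tested. In 9 of these 49 genes the filter was met in the hybrid only, so they had to differ, and they are not counted as support: SSF1, RRS1, RSA3, SPB1, REI1, IPI1, NOP16, RRP14 and NOP13. Among the 40 that also met it in the co-culture, 39 rose, with a median log2 fold of 0.56, against 26.7% of the 2591 genes that did so.

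The sizes of the rises covered a wide range. The median log2 fold of the 49 tested genes was 0.57, a 1.48-fold difference, beside 0.01 over all genes tested. Of the 40 genes that met the filter in the co-culture too, 9 were more than 2-fold higher (2.28% of all such genes), and in 28 every hybrid replicate lay above every co-culture replicate (12.7% of all such genes). With the 9 genes that had to differ included, 13 of 49 were more than 2-fold higher, against 3.83% of all genes tested. In 33 of the 49 every hybrid replicate lay above every co-culture replicate, which held for 14.0% of all genes tested. Another 11 lay between 1.5-fold and 2-fold and 25 below 1.5-fold. The calls of DBP7, RRS1, NOP13 and IPI1, all with SE of 0.15 or more, were lost when 1 of several summed replicates was left out.

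**Figure D1:**
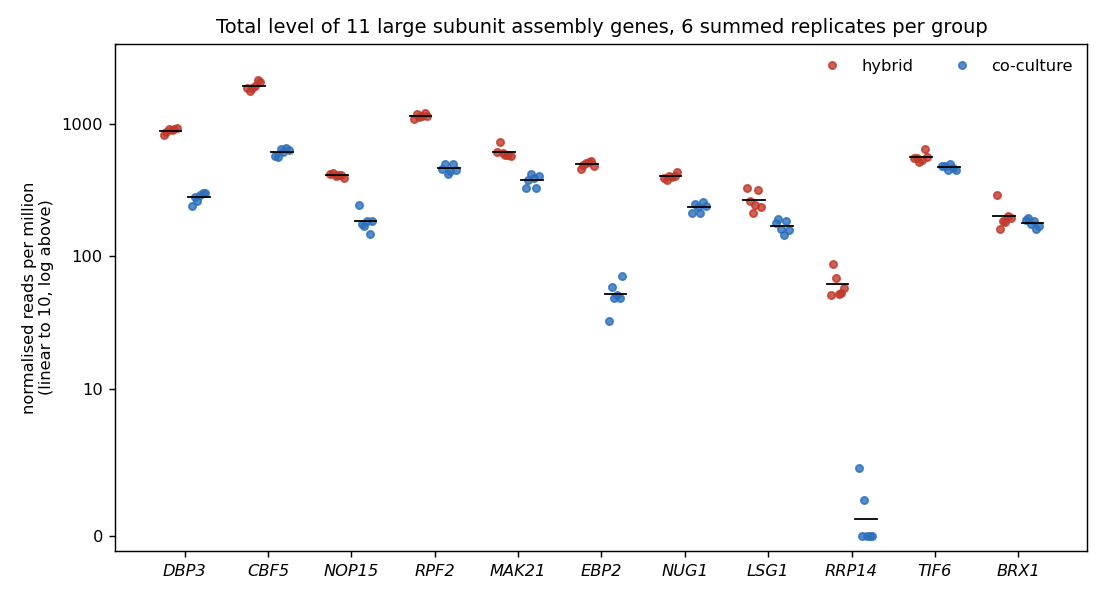
Level in CPM (vertical axis, linear to 10 and logarithmic above) of 11 large subunit assembly genes in the 6 summed replicates of the hybrid (red) and the co-culture (blue), with a bar at each mean. The groups are apart for DBP3, CBF5, EBP2 and RRP14, and they overlap for BRX1.

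The DEAD-box RNA helicases unwind the precursor RNA and help small nucleolar RNAs come off it. All 9 counted helicase genes rose, with log2 folds from 0.39 to 1.66 and a median of 0.49. DBP3, a helicase of early cleavage in the first internal spacer, ran from 817 to 922 with a median of 903 in the hybrid and from 240 to 300 with a median of 286 in the co-culture. Its groups were far apart, 3.17-fold by the fit (log2 1.66, SE 0.06, adjusted p = 4.34e-36). DRS1, which acts in maturation of the large subunit RNA, had hybrid values of 278 to 406 around a median of 293 and co-culture values of 73.8 to 129 around 94.7, with no overlap. Its fold was 2.97 (log2 1.57, SE 0.10, adjusted p = 2.76e-22), and 1 hybrid replicate stood at 406, above the others. MAK5, a helicase of early large subunit particles, rose by a smaller log2 0.49 (SE 0.05, adjusted p = 7.42e-14), again without overlap. DBP9, SPB4, DBP6, HAS1, DBP10 and DBP7 had log2 folds of 0.76, 0.72, 0.49, 0.47, 0.46 and 0.39, and the groups overlapped for DBP6, DBP10 and DBP7.

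The 3 enzymes that modify ribosomal RNA all rose, 2 of them (CBF5 and NOP2) with the filter met in both groups. CBF5, the pseudouridine synthase of the box H/ACA particles, ran from 1762 to 2136 with a median of 1891 in the hybrid and from 560 to 660 with a median of 624 in the co-culture. The groups did not overlap, and the fold was 3.16 (log2 1.66, SE 0.05, adjusted p = 5.31e-41). SPB1, a ribose methyltransferase of the large subunit RNA, stood at 169 to 240 (median 196) in the hybrid and at 27.7 to 53.2 (median 42.5) in the co-culture. Its log2 fold was 2.18 (SE 0.14, adjusted p = 5.86e-23). NOP2, a cytosine methyltransferase of the same RNA, rose by log2 0.55 (SE 0.10, adjusted p = 3.34e-06), with overlapping groups.

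Of the Nop7 complex and the A3 factors, which prepare the removal of the first internal spacer, 4 of 7 listed genes were counted, and all 4 rose. NOP15, an RNA-binding A3 factor, ran from 387 to 423 with a median of 410 in the hybrid and from 147 to 244 with a median of 180 in the co-culture. The hybrid replicates lay close together and all were higher, with a fold of 2.26 (log2 1.18, SE 0.08, adjusted p = 2.75e-21). Its direction reversed to log2 -0.22 (SE 0.09, adjusted p = 0.0294) once the trend of all genes on coding A share, described further on, was removed. ERB1, which bridges the Nop7 complex, rose by log2 0.73 (SE 0.08, adjusted p = 1.44e-13), and RRP1, a nucleolar processing factor, by log2 1.09 (SE 0.13, adjusted p = 4.35e-11). YTM1, the substrate that the remodelling machine pulls out with ERB1, had the smallest rise of the group, log2 0.34 (SE 0.05).

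The Brix-domain proteins bind the precursor RNA, and RPF2 with RRS1 brings the 5S particle into the large subunit. RPF2 ran from 1083 to 1201 with a median of 1145 in the hybrid and from 421 to 496 with a median of 453 in the co-culture. With no overlap, it was 2.47-fold higher (log2 1.31, SE 0.06, adjusted p = 6.54e-33). RRS1 was measured with few reads, 131 for the hybrid beside 88, and rose by log2 0.48 (SE 0.21, adjusted p = 0.0444) with overlapping groups. SSF1, a Brix-domain factor, rose by log2 0.96 (SE 0.19, adjusted p = 1.002e-05), although its coding sequence is 92.07% identical to that of SSF2, so its reads are uncertain.

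BRX1, the remaining Brix-domain gene, was the 1 tested member that did not pass. Its values ran from 161 to 290 with a median of 190 in the hybrid and from 162 to 195 with a median of 179 in the co-culture. The ranges overlapped almost entirely apart from 1 hybrid replicate at 290, and the log2 fold was 0.12 (SE 0.10, adjusted p = 0.326).

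The Noc proteins and the Urb proteins are large scaffolds of early and intermediate particles. All 6 genes of this group rose, and the 5 that met the filter in both groups had log2 folds of 0.26 to 0.67 with a median of 0.42. MAK21 (NOC1), a partner of NOC2, ran from 572 to 728 with a median of 594 in the hybrid and from 327 to 419 with a median of 383 in the co-culture. The groups were apart (log2 0.67, SE 0.07, adjusted p = 3.58e-14). NOC2 rose by log2 0.42 (SE 0.09, adjusted p = 1.48e-05) and RSA3, which works with the helicase DBP6, by log2 1.01 (SE 0.21, adjusted p = 2.97e-05), both with overlap. NOC3, URB1 and URB2 had log2 folds of 0.43, 0.26 and 0.26, each with overlapping groups.

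All 10 counted genes of the other nucleolar factors rose. The 7 that met the filter in both groups had log2 folds of 0.57 to 3.21 with a median of 0.88, whereas NOP16, RRP14 and NOP13 met it in the hybrid only. EBP2, which is needed for processing of the 27S precursor, ran from 453 to 526 with a median of 499 in the hybrid and from 32.3 to 70.8 with a median of 49.9 in the co-culture. Each hybrid replicate was several times above the highest co-culture one, a fold of 9.25 (log2 3.21, SE 0.10, adjusted p = 4.46e-41). LOC1, a nuclear RNA-binding protein also known from ASH1 mRNA localisation, ran from 370 to 440 in the hybrid and from 55.3 to 74.9 in the co-culture, with medians of 387 and 69.5. It was 5.68-fold higher (log2 2.51, SE 0.10, adjusted p = 1.03e-34). NOP4, an RNA-recognition protein of early particles, ran from 645 to 733 in the hybrid and from 191 to 277 in the co-culture, with medians of 703 and 215. It rose 3.20-fold (log2 1.68, SE 0.07, adjusted p = 8.07e-34). NOP12, PUF6, NSA1, MAK11 and NOP13 had log2 folds of 0.88, 0.87, 0.69, 0.57 and 0.46, and none of their groups overlapped. For NOP13 the groups almost touched, with a lowest hybrid value of 44.3 and a highest co-culture value of 44.1.

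The lowest co-culture counts in this group belonged to NOP16 and RRP14. NOP16, a component of nucleolar particles, had 424 hybrid reads and 38 co-culture reads. Its values of 147 to 178 (median 166) and 7.25 to 27.9 (median 12.4) did not overlap, and its log2 fold was 3.37 (SE 0.19, adjusted p = 2.19e-26). RRP14, which works in maturation of both subunits' RNA, had 157 reads in the hybrid, with 10 to 20 in each of the 12 libraries. The co-culture gave 2 RRP14 reads in all, in 2 libraries. The ratio was 79.1 with an exact 95% interval of 21.5 to 659 for counting error only, and the fitted log2 fold of 5.76 depends on the prior count of the fit.

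**Figure D2:**
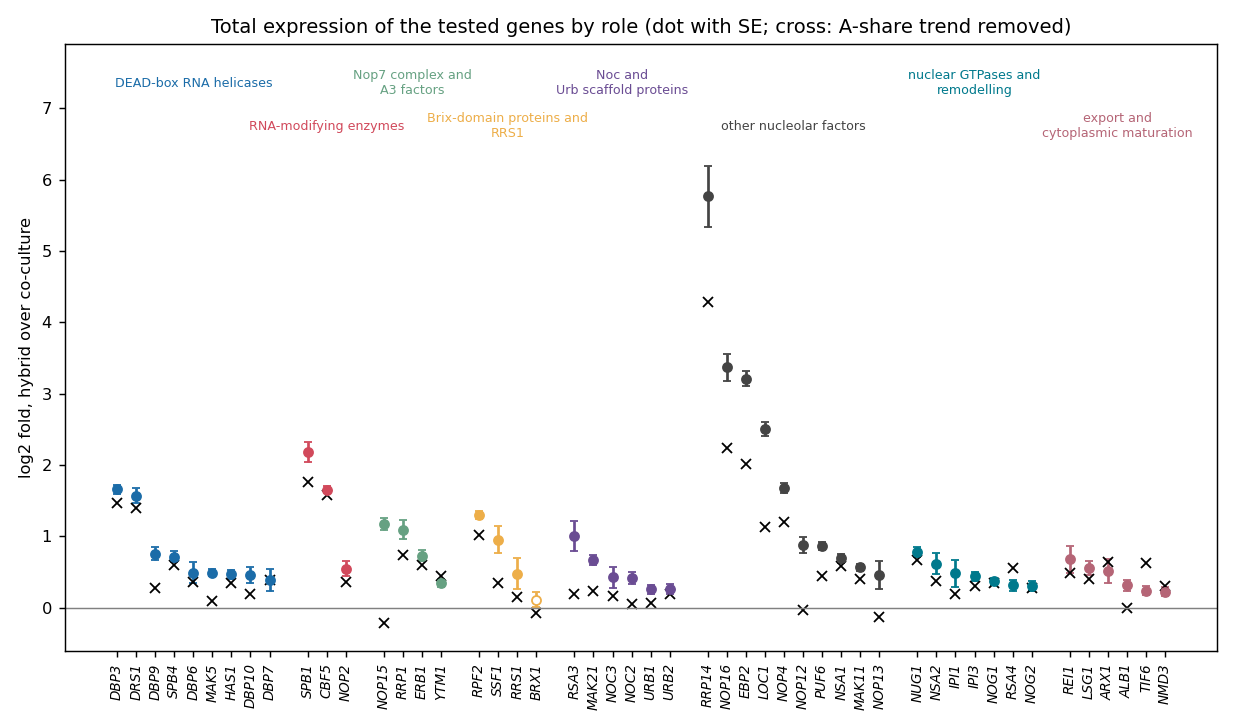
Log2 fold of hybrid over co-culture (vertical axis) for the 49 tested genes in 8 role groups, as dots with SE bars, filled where the test passed. Crosses give the value after the trend on coding A share was removed. The other nucleolar factors reach 5.76, and BRX1 at 0.12 is the 1 open dot. The cross of NOP15 lies lowest, at -0.22, and those of NOP13, BRX1, NOP12 and ALB1 are also below 0.

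The nuclear GTPases and the remodelling machinery showed smaller and more even rises, with all 7 tested genes higher by log2 0.31 to 0.78. Without IPI1, which met the filter in the hybrid only, the median was 0.41. NUG1, a nuclear GTPase required before export, ran from 375 to 436 with a median of 401 in the hybrid and from 212 to 256 with a median of 237 in the co-culture. The groups were apart, and the fold was 1.72 (log2 0.78, SE 0.08, adjusted p = 6.12e-15). NOG1, a GTPase that stays on the particle into the cytoplasm, rose by log2 0.37 (SE 0.05, adjusted p = 3.29e-10) and IPI3, a subunit of the Rix1 complex, by log2 0.44 (SE 0.06, adjusted p = 1.10e-08). NSA2, IPI1, RSA4 and NOG2 had log2 folds of 0.62, 0.48, 0.32 and 0.31, and NOG2 shares its locus with the small nucleolar RNA gene SNR191.

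Both members with too few reads to test belong to this machinery. MDN1 (REA1 in R64), the AAA ATPase that remodels the particle, had 78 hybrid and 19 co-culture reads, a ratio of 4.14 with an exact 95% interval of 2.48 to 7.24. RIX1, the subunit that recruits it, had 50 and 40 reads, a ratio of 1.26 with an interval of 0.815 to 1.96 that includes no difference.

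All 6 export and cytoplasmic factor genes rose, and the 5 other than REI1, which met the filter in the hybrid only, had a median log2 fold of 0.32. LSG1, the cytoplasmic GTPase that releases NMD3, ran from 212 to 327 with a median of 253 in the hybrid and from 144 to 192 with a median of 170 in the co-culture. The groups did not overlap (log2 0.56, SE 0.10, adjusted p = 9.91e-07). TIF6, which keeps the subunits apart until maturation is complete, ran from 512 to 641 in the hybrid and from 445 to 497 in the co-culture, with medians of 552 and 470, and rose by log2 0.24 (SE 0.06, adjusted p = 0.000776). ALB1, a partner of ARX1, rose by log2 0.32 (SE 0.07, adjusted p = 0.000179). NMD3, the export adapter, had the smallest rise that passed, log2 0.23 (SE 0.06, adjusted p = 0.0017), with overlapping groups. REI1 and ARX1 had log2 folds of 0.68 and 0.51, also with overlap, and REI1 lies across from the annotated gene SLM6, and the strand handling of the counts is not given.

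The folds moved with the base composition of the coding sequences. The A share of the coding sequence ran from 28.05% in TIF6 to 43.75% in RRP14, with a median of 34.94% in the tested members and 32.59% in all tested genes, and 44 of the 49 members lay above the latter. Across the 49 genes the log2 fold had a rank correlation of 0.61 with A share (Pearson 0.69) and of 0.67 with the lysine share of the protein. Across 2780 tested genes the rank correlation with A share was 0.55. These genes share libraries and depth and are not independent replicates, and the RNA was selected and primed with oligo-dT. The part of base composition in the rises was not tested.

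Taking only genes of like composition gave the following values. Between 34.1% and 36.78% A, the middle range of the members, 630 genes were tested, of which 45.4% were called higher with a median log2 fold of 0.24. The 25 members in that range had a median of 0.55, and 24 of them rose. SPB1, RRS1, IPI1 and REI1, which met the filter in the hybrid only, are among these 25 and are not counted as support. With the smooth trend of each library on A share removed over all genes, 35 of the 49 rose, 1 fell and 13 did not pass, against 27.7% of all genes called higher, and the median log2 fold was 0.38. Of the 40 genes that met the filter in both groups, 31 rose and 1 fell. The largest values then were 4.28 for RRP14, 2.24 for NOP16, 2.01 for EBP2 and 1.76 for SPB1. Of these only EBP2 met the filter in both groups. The other genes that met it in both and kept more than a 2-fold difference were CBF5, DBP3, DRS1, NOP4, LOC1 and RPF2. Their values were 1.58, 1.47, 1.40, 1.20, 1.14 and 1.03.

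**Figure D3:**
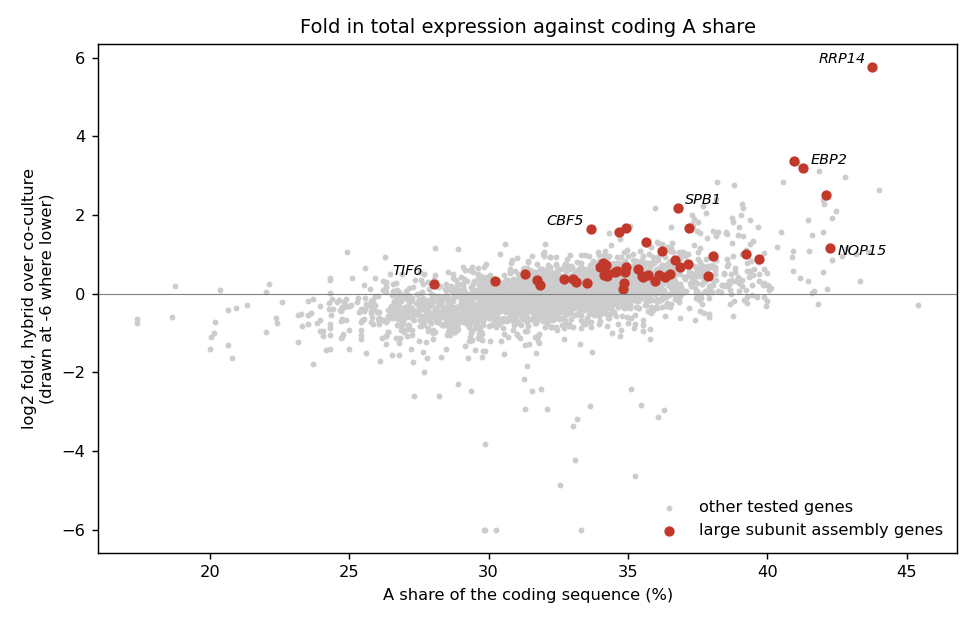
Log2 fold of hybrid over co-culture (vertical axis) against the A share of the coding sequence in percent (horizontal axis) for the tested genes, with the large subunit assembly genes in red and 4 other genes below the axis drawn at its lower end. Folds rise to the right in both sets, and the members lie mostly in the upper part of the cloud.

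By role, the values with this trend removed were as follows. They cover all tested members. Among the calls kept, those of SPB1, NOP16, RRP14 and REI1 met the filter in the hybrid only and are not counted as support. The modifying enzymes kept 3 of 3 calls and a median log2 fold of 1.58. Those with the filter met in both groups were CBF5 at 1.58 and NOP2 at 0.36. The other nucleolar factors kept 8 of 10 with a median of 0.86, and the Nop7 complex and A3 factors 3 of 4 with 0.52. The helicases kept 7 of 9 with a median of 0.36, the nuclear GTPases and remodelling factors 6 of 7 with 0.35, and the export and cytoplasmic factors 5 of 6 with 0.44. In TIF6, with the lowest A share, the value went up to 0.63. The Noc and Urb group kept 2 of 6 calls with a median of 0.18, and the Brix group kept 1 of 4, RPF2 at 1.03. NOP15, with an A share of 42.23%, was the 1 gene that fell. DBP10, MAK5, SSF1, RRS1, NOC2, NOC3, URB1, RSA3, IPI1, NOP12, NOP13 and ALB1 no longer passed.

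The rises were also set beside the promoter motifs, as a description. Of the members that met the filter in both groups, the 34 with both motifs had a median log2 fold of 0.56 and 33 rose, and the 6 without both had a median of 0.53 and all 6 rose. MAK11, which lacks both and rose by log2 0.57 (SE 0.05), was among the latter. Of all 254 tested genes with both motifs, 164 (64.6%) were called higher, with a median of 0.37. The 157 of them on none of the lists used here had a median of 0.22, with 74 called higher.

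Most tested alleles of the assembly genes were called higher in the hybrid, for BY as for RM. Compared apart, with scaling within each strain's reads, the BY alleles rose in 39 of 41 tested members (31.1% of all BY alleles tested) and the RM alleles in 37 of 40 (30.1%). None fell in either. The filter of 10 mean reads per library was applied to each allele. It was met in the hybrid only by the BY alleles of DBP6, DBP7, DBP10, SPB1, RRP1, NOC3, NOP16, EBP2, LOC1 and NSA2. The same held for the RM alleles of DBP6, SPB1, NOP16, EBP2, LOC1 and NSA2. The counts, medians and shares over all genes given here include such alleles, and counts without them were not made. The alleles named are not counted as support. Of the 40 genes tested for both, 35 rose in both alleles, against 21.1% of the 1949 genes tested for both. Over the 40 the median log2 fold was 0.62 for BY and 0.66 for RM. CBF5, with the filter met in both groups for each allele, stood at 1.67 (SE 0.07) for BY and 1.70 (SE 0.07) for RM. EBP2 stood at 3.05 (SE 0.14) for BY and 3.39 (SE 0.14) for RM. LOC1 stood at 2.39 (SE 0.15) and 2.64 (SE 0.14), and like EBP2 it met the filter in the hybrid only.

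In 5 genes 1 allele passed and the other did not. The BY allele alone passed in TIF6, at log2 0.58 (SE 0.09) against 0.01 (SE 0.08) for RM, in BRX1, at 0.37 (SE 0.15) against -0.03 (SE 0.13), and in DBP7, at 0.57 (SE 0.20) against 0.29 (SE 0.19). The RM allele alone passed in DBP6, at 0.68 (SE 0.21) against 0.34 (SE 0.19) for BY, and in DBP10, at 0.58 (SE 0.14) against 0.38 (SE 0.17). The BY allele of DBP7 and the RM allele of DBP6 met the filter in the hybrid only. These 1-allele calls depend on the settings. The BY calls of BRX1 and DBP7 were lost with DESeq2 and also when certain single replicates were left out. The BY allele of DBP10 passed with no scaling (0.44), without hybrid replicate 1 (0.39) and without co-culture replicate 3 (0.48). With the A-share trend removed, the RM allele of TIF6 rose by 0.39 (adjusted p = 3.42e-05), while the RM alleles of DBP6 (0.48, adjusted p = 0.0522) and DBP10 (0.25, adjusted p = 0.148) and the BY allele of BRX1 (0.11, adjusted p = 0.536) did not pass. Whether the alleles differ in their change is the test of the allele ratio between the groups, which among these 5 genes TIF6 passed and the other 4 did not.

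**Figure D4:**
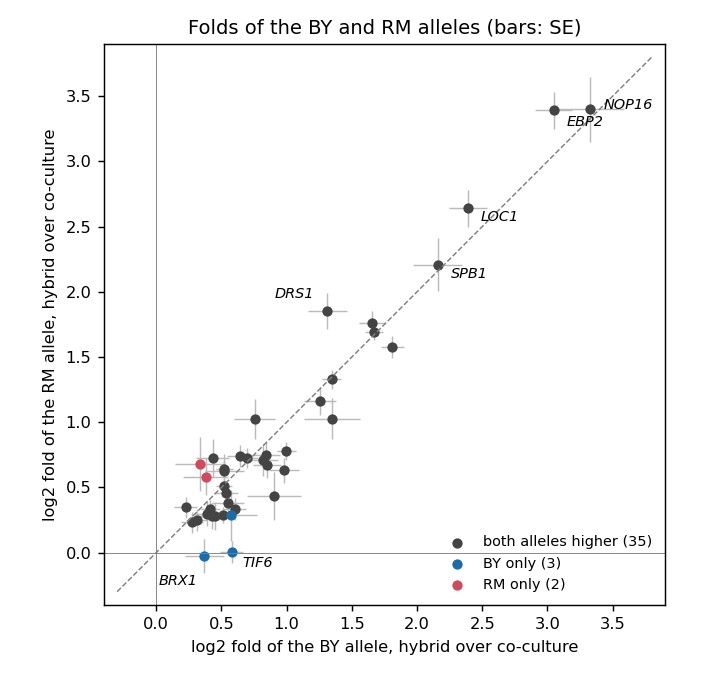
Log2 fold of hybrid over co-culture for the RM allele (vertical axis) against that for the BY allele (horizontal axis) of the 40 assembly genes tested for both, with SE bars and a dashed line of equality. The points follow the line up to NOP16 and EBP2, and TIF6 and BRX1 lie near 0 for RM only.

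Within the hybrid, where both alleles share 1 nucleus, the allele ratio of most assembly genes did not pass the test. The RM over BY ratio in the hybrid (called cis) passed in 9 of 42 tested members, against 20.1% of all 2661 gene pairs tested, and the median absolute log2 ratio was 0.13 in the members and 0.17 in all pairs. The RM allele was higher in 6 and lower in 3. All ratios are scaled so that the typical gene pair is at 0.

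Among the tested members, the clearest allelic difference was in the helicase gene DBP10. Its hybrid reads were 168 for BY and 272 for RM, an RM share of 61.8% (exact 95% interval 57.1% to 66.4%). RM was higher in 6 of 6 summed replicates, with a log2 ratio of 0.69 (SE 0.14, adjusted p = 2.12e-05). SPB4, another helicase gene, had 473 BY and 616 RM reads and was also higher for RM in 6 of 6 (log2 0.38, SE 0.09, adjusted p = 0.000334). RRP1 had 180 and 256 reads and was higher for RM in 5 of 6 (log2 0.51, SE 0.14, adjusted p = 0.00332). Without hybrid replicate 4, SPB4 (log2 0.28, adjusted p = 0.0723) and RRP1 (log2 0.35, adjusted p = 0.172) did not pass, and RRP1 did not pass with DESeq2 (adjusted p = 0.115), while DBP10 passed in both. Among the untested members, MDN1 had 61 BY and 17 RM hybrid reads, 21.8% RM (13.2% to 32.6%). IPI1 had 86 and 56, 39.4% RM (31.3% to 48.0%). These intervals cover counting error only, and those of the other untested members include equal shares.

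The other cis differences were small. RPF2 had a log2 ratio of 0.20 (SE 0.06, adjusted p = 0.00203) and NOP4 of 0.25 (SE 0.07, adjusted p = 0.00251), each with RM higher in 6 of 6 replicates. RSA4, a remodelling factor, was at 0.28 (SE 0.10, adjusted p = 0.0361). BY was the higher allele in DBP9 (log2 -0.34, SE 0.10, adjusted p = 0.00897, in 6 of 6), URB2 (-0.18, SE 0.07, adjusted p = 0.0364, in 5 of 6) and LSG1 (-0.31, SE 0.12, adjusted p = 0.039, in 5 of 6). Over all 9 cis calls, 1 summed replicate weighed most: without hybrid replicate 4, which holds 4 libraries, the count was 3 in place of 9, and DESeq2 called 2.

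Between the haploid strains in co-culture (called parental) the members differed in 12 of 42 cases, against 40.3% of all pairs, with RM higher in 11. Over all pairs RM was higher in 579 and lower in 493. RRP1 had 61 reads from BY and 129 from RM, which is 67.9% RM (60.8% to 74.5%), a log2 ratio of 0.86 (SE 0.22, adjusted p = 0.00037) and RM higher in 6 of 6 replicates. SPB4 had 208 and 410, which is 66.3% RM (62.5% to 70.1%), and a log2 ratio of 0.77 (SE 0.12, adjusted p = 3.48e-09), with RM higher in 6 of 6. The same direction held for DBP10 at 0.53, RSA4 at 0.49, TIF6 at 0.47, BRX1 at 0.46, ALB1 at 0.34, NOC2 at 0.32, NOG2 at 0.31, RPF2 at 0.25 and NOG1 at 0.15. LSG1 was the 1 gene with BY higher, at log2 -0.56 (SE 0.14, adjusted p = 0.000426), in 6 of 6 replicates. The RM shares given here are of unscaled reads, and BY made up 45.19% of all co-culture reads. The log2 ratios are scaled for this.

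DBP10, SPB4, RRP1, RPF2, RSA4 and LSG1 were called in both the hybrid and the co-culture with the same sign, 6 of 42 members against 10.8% of all pairs. In 24 of the 42 genes none of the allele tests passed, against 51.6% of all pairs. DESeq2 called 6 parental differences in place of 12. With it the cis calls of RRP1, RPF2, RSA4 and LSG1 and the parental calls of DBP10 and RPF2 were lost. Of the 6 genes called in both groups, only SPB4 kept both calls with DESeq2. The parental call of DBP10 was also lost without co-culture replicate 6 (log2 0.36, adjusted p = 0.119).

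**Figure D5:**
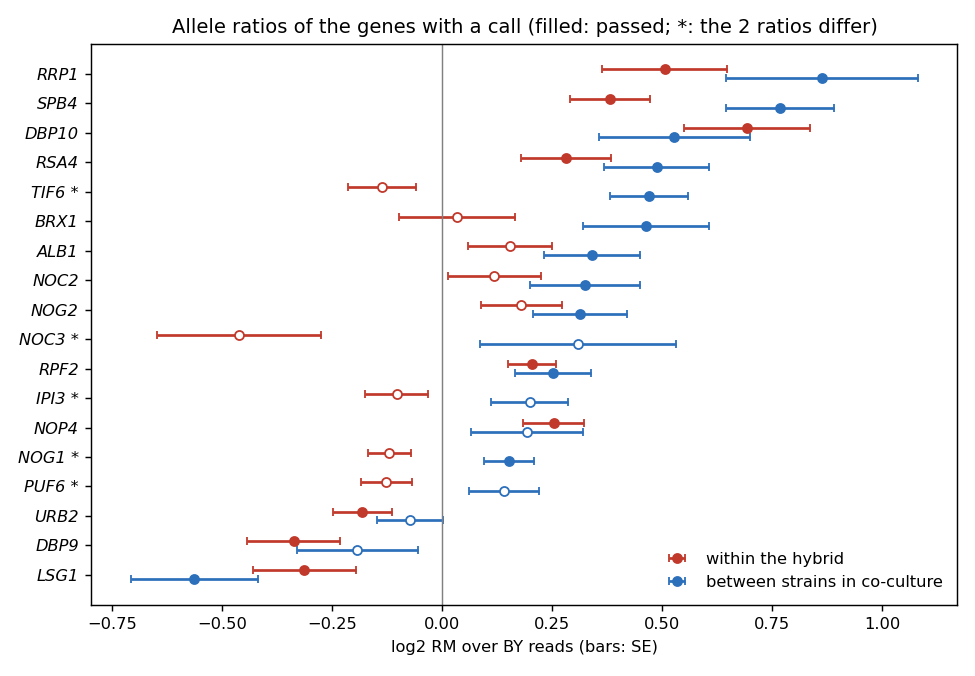
Log2 of RM over BY reads (horizontal axis, SE bars) within the hybrid (red) and between the strains in co-culture (blue) for the 18 assembly genes with a call in any allele test, filled where that ratio passed, with a star where both ratios differ from each other. DBP10, SPB4 and RRP1 lie to the right in both, LSG1 to the left in both, and TIF6 only in co-culture.

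The allele ratio itself changed between co-culture and hybrid (called trans, co-culture minus hybrid) in 5 of 42 members, against 20.7% of all pairs. In each of the 5 the RM over BY ratio was larger in the co-culture. Over all pairs called it was larger there in 319 and smaller in 233. For TIF6 the co-culture held 447 reads from BY and 717 from RM, 61.6% RM (58.7% to 64.4%), whereas the hybrid held 767 and 697, 47.6% RM (45.0% to 50.2%). These shares are of unscaled reads, of which BY made up 45.19% in the co-culture and 50.31% in the hybrid. After scaling, RM was higher in 6 of 6 co-culture and 2 of 6 hybrid replicates, a change of log2 0.61 (SE 0.12, adjusted p = 3.70e-06).

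The other 4 changes were closer to the threshold. NOC3 changed by log2 0.77 (SE 0.29, adjusted p = 0.0411), IPI3 by 0.30 (SE 0.11, adjusted p = 0.04), NOG1 by 0.27 (SE 0.08, adjusted p = 0.00261) and PUF6, an mRNA-binding protein that also acts in large subunit assembly, by 0.27 (SE 0.10, adjusted p = 0.0341). Without 1 of the summed replicates the count ranged from 2 to 5, and the lowest came without hybrid replicate 3. DESeq2 called 1, and the 12 libraries fitted without summing gave 2.

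Genes of neighbouring steps are given for comparison only. Of 19 further large subunit assembly genes tested, 16 rose and 0 fell, with a median log2 fold of 0.41 (NOP53 2.63, NOP8 1.52). Of 47 tested small subunit assembly factors, 43 rose and 0 fell, with a median of 0.65 (UTP14 2.76, LTV1 1.78). RNA polymerase I, which transcribes the ribosomal RNA precursor, had 4 of 6 tested subunit genes higher and 0 lower, with a median of 0.55 (RPA34 1.81, RPA43 0.84). Of 33 tested genes for large subunit ribosomal proteins, 24 rose and 2 fell, with a median of 0.35 (RPL7B 0.98, RPL13A 0.66), and most of these have a near-identical copy. Only 4 of the 11 counted general stress genes had enough reads to test. Among these 4, 3 were lower and 0 higher (HSP12 -3.36, HSP26 -2.93). Mean levels of HSP12 were 10.8 CPM for the hybrid beside 98.0 for the co-culture, and those of HSP26 were 12.4 beside 89.3. Both genes met the count filter through the co-culture only, so they had to differ and are not counted as support. Any part of the stress genes in the assembly factor result was not tested.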

How the data were processed

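RNA of 12 hybrid and 12 co-culture libraries was counted by the submitters. Per the file headers, the deposited values are raw counts, per gene pair and allele, of reads on SNPs that tell BY from RM, with no normalisation. Not given in the sources used here were the aligner, genome build, read filters and strand handling. The gene list, its 8 roles, the comparison lists and the alternatives were chosen with earlier results of these data known.

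Libraries of a group were summed by complete linkage where a chi-square test over allele features with at least 20 reads in the pair gave a p of at least 0.05 while other pairs gave a p under 0.001, which left 6 of 12 in each group. In the hybrid, 38 of 66 library pairs and in the co-culture 16 of 66 had a p under 0.001. A p of at least 0.05 was found in 16 hybrid and 20 co-culture pairs. Some of these pairs lie in different summed replicates, such as hybrid libraries 3 and 4 (chi-square p = 0.34). Total expression (both alleles summed) and each allele apart were tested with glmQLFit and glmQLFTest of edgeR 4.0.16 in R 4.3.3, with TMM scaling and genes of at least 10 mean reads per library in 1 group. Allele ratios came from 1 joint edgeR fit with the summed library as a block, for gene pairs with at least 100 reads in each group. P-values were adjusted by Benjamini-Hochberg over all genes tested, with a threshold of 0.05. The scripts were tested on simulated data. Alternatives were DESeq2 1.42.0, other scaling, no count filter, unsummed libraries, a replicate block, left-out replicates, and removal of the trend on coding A share (natural spline with 4 degrees of freedom per library). Exact 95% intervals (Clopper-Pearson for shares) cover counting error only, and reads are not independent molecules.

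The text names in each role the 3 tested members with the smallest p, every member that did not pass, the 2 largest and 2 smallest folds, every member with an allele call, members called for 1 allele only, members with too few reads, and 2 genes of each other list. Other members are given by their folds. Coordinates, symbols and sequences are from RefSeq R64.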

Additional observations from a re-analysis of the deposited data

Results flagged for a closer look

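In 8 of the 98 groups of 6 summed replicates checked (49 tested genes in both groups), the highest or lowest replicate stood apart from the other 5 by more than Dixon's 95% critical value. Chance gives this in about 1 in 20 groups where the 6 values are equally precise, which these are not. Hybrid replicate 1 accounted for 4 of them: DBP10 at 117 CPM against 165 to 181 in the others, DRS1 at 406 against 278 to 317, BRX1 at 290 against 161 to 203, and NOG1 at 1500 against 1410 to 1440. Hybrid replicate 2 stood apart for MAK21, at 728 against 572 to 612, and for LOC1, at 440 against 370 to 395. Hybrid replicate 5 was low for NSA2, at 67.5 against 109 to 127. Co-culture replicate 1 was high for NSA1, at 627 against 488 to 513. Each replicate named here holds 1 library, whereas others hold up to 4, so its counting noise is larger.

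The RM over BY ratio differed between the groups, by the test of the difference itself, in 5 genes. Co-culture minus hybrid, the log2 ratio changed by 0.77 in NOC3, 0.61 in TIF6, 0.30 in IPI3, 0.27 in NOG1 and 0.27 in PUF6.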

How the results depend on the processing

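The count of genes higher in the hybrid (48 of 49) stayed between 45 and 47 without 1 summed replicate, and was 44 with DESeq2, 48 with no scaling beyond library totals, and 45 without hybrid libraries 1 and 9 (added after seeing the data). The median log2 fold of 0.57 became 0.61 with DESeq2, 0.67 with no scaling (where the median of all genes was 0.12), 0.38 with the A-share trend removed, 0.61 without hybrid libraries 1 and 9, and 0.57 to 0.64 without 1 summed replicate. With the trend removed, NOP15 (-0.22), NOP13 (-0.13), BRX1 (-0.07), NOP12 (-0.03) and ALB1 (0.0 to 2 decimals, below 0) changed sign. The BY alleles kept 38 to 39 calls and the RM alleles 35 to 37 without 1 summed replicate, and with the trend removed 27 BY alleles rose, 1 fell, and 25 RM alleles rose. The RM allele of TIF6 rose by 0.39 with the trend removed, and was -0.01 with DESeq2, -0.03 with no count filter, -0.01 with unsummed libraries, -0.01 with the replicate block, -0.02 without hybrid libraries 1 and 9, and -0.06 to 0.04 without 1 replicate. That of BRX1 was 0.08 with no scaling and -0.1 to 0.0 without 1 replicate.

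The allele calls depend more on the settings. Cis had 9 calls, 2 with DESeq2 and 3 to 9 without 1 summed replicate, and no scaling gave 6 with RM higher and 1 lower in place of 6 and 3. Parental had 12, 6 with DESeq2 and 9 to 12 without 1 replicate. Trans had 5, 1 with DESeq2, 2 with no scaling (1 in each direction), 2 with unsummed libraries and 2 to 5 without 1 replicate. The causes were not tested. At these depths 2 members had too few reads for total expression and 9 for allele ratios.

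Library numbers do not pair the groups: the correlation of same-numbered deviations was -0.028 to 0.063 over 12 pairs, and 1 library was closest to its own number. With the library number as a replicate block, 48 members rose in total expression, 39 in the BY and 37 in the RM alleles.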
